A study of Mus musculus with 88 samples.

Results

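Trp53 and 9 genes that the p53 protein is known to switch on, namely Cdkn1a, Trp53inp1, Bbc3, Mdm2, Ccng1, Sesn2, Phlda3, Pmaip1 and Bax, were followed through the differentiation of mouse embryonic stem cells that lack a subunit of Polycomb repressive complex 2 (PRC2). These 10 genes were chosen from the p53 pathway with results of this series already known, and which values led to the choice is not recorded. Their single-cell levels are therefore given as a description with no test, and the tests in bulk RNA come from fits across all genes and are not independent evidence about the list. All 10 were found among the 15830 genes of the single-cell table and passed the filters on low values in the bulk tables, in which 18361 (mesoderm), 19261 (endoderm) and 15837 (embryoid body) genes were tested.

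The 88 samples comprised 16 single-cell libraries, 48 libraries of directed differentiation and 24 bulk embryoid body samples. In the single-cell experiment, WT E14 cells and Mtf2 null (Mtf2GT/GT, a gene trap), Jarid2 null (Jarid2-/-) and Eed null (Eed-/-) cells were kept in serum with LIF, allowed to aggregate into embryoid bodies, differentiated by withdrawal of LIF, and sorted as live cells into 384-well plates at days 0, 4, 7 and 10, with 1 library per genotype and day. In the directed series, WT E14, Mtf2 null and Jarid2 null cells were sampled undifferentiated (UD) and 5, 24 and 48 h after the addition of factors, with 2 libraries at each point of either series, described by the study as technical duplicates. Mesoderm was induced with Activin A, BMP4, CHIR99021 and FGF2, followed by a TGF-beta receptor inhibitor with BMP4, and endoderm with Activin A, CHIR99021 and FGF2, followed by Activin A with DM3189, an inhibitor of BMP receptors. The bulk embryoid body samples, 1 per line at each of days 0, 2, 4 and 7, came from mutant lines labelled Mtf2 null, Jarid2 null and Eed null, each read against its own WT line (Pcl1-3 WT, JM8 and J1). The day 0 columns of these samples are named mono and the later ones eb, while the sample titles give eb at all days. Day 0 may therefore be monolayer cells rather than embryoid bodies. Each genotype was 1 cell line and the mutants were made in different parental lines, so genotype and line background cannot be told apart, and in bulk RNA fewer cells of a type and less RNA per cell cannot be told apart either.

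p53, encoded by Trp53, is a transcription factor whose protein is kept scarce in healthy cells by the ubiquitin ligase Mdm2, itself a p53 target, and accumulates after DNA damage, oncogene activity or other stress. Its targets stop the cell cycle (Cdkn1a, which encodes the CDK inhibitor p21, and Ccng1, cyclin G1), restrain growth signalling (Sesn2, an inhibitor of mTORC1, and Phlda3, an inhibitor of AKT), amplify the response (Trp53inp1) or promote death at the mitochondrion (Bbc3 and Pmaip1, which encode the BH3-only proteins PUMA and NOXA, and Bax, the pore-forming effector). In embryonic stem cells p53 is abundant at the RNA level and has been linked to differentiation as well as to damage. PRC2 deposits methylation on lysine 27 of histone H3: Eed is a core subunit without which the mark is lost, whereas Mtf2 and Jarid2 help to direct the complex to CpG islands. The p53 protein and its modifications were not measured, and all values are RNA.

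In the single-cell libraries Mtf2 was at 53.7 to 61.1 UMI CPM in Mtf2 null against 294 to 793 in the others, and Eed at 1.33 to 11.5 in Eed null against 115 to 495. Jarid2 was lower in Jarid2 null than in WT at each day, but its range of 115 to 185 UMI CPM touched the 184 to 884 of the other libraries. In the directed series Mtf2 was low in Mtf2 null (30.2 to 38.2 CPM against 206 to 509 in WT), but Jarid2 in the libraries labelled Jarid2 null overlapped WT at 48 h of mesoderm (397 to 448 against 388 to 407 CPM). Eed RNA of the embryoid bodies labelled Eed null (58.2 to 206 CPM) was not below that of J1 (52.5 to 246). Jarid2 in those labelled Jarid2 null (221 to 662 CPM) overlapped JM8 (277 to 642). Mtf2 in those labelled Mtf2 null (164 to 317 CPM) was below Pcl1-3 WT (324.5 to 442), but not as low as in the directed Mtf2 null libraries. These mutants are therefore named throughout as labelled. An RNA that lacks part of a gene can still be counted. Depth was 4997 to 10603 UMIs per cell as the median of a library, and 9111880 to 16898264, 9889592 to 16372804 and 4071242 to 30457254 counts per bulk library or sample in the mesoderm, endoderm and embryoid body tables.

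The promoters of several members carry the sequence that p53 binds, and they are shown because the levels described here concern direct targets of this factor. RefSeq promoter windows of GRCm38.p6, from 250 bases before to 50 after each start site, were given for 8 of the 10 members (11 windows). The consensus 10-base p53 element, searched on both strands with no mismatch, was found in 5 of these 11 windows and in 8.356% of 32851 mouse promoters. The 20-base site made of a pair of adjacent elements, with at most 2 mismatches, was found in 2 of the 11 (Cdkn1a and Ccng1) and in 0.7975% of all promoters. The element is contained in the longer site, so both counts overlap. The stretches below are written 5' to 3' on the strand of the gene, with 1 matched site in capitals, and lie at chr17:29090888-29090978 (plus strand, Cdkn1a), chr11:40755422-40755521 (minus, Ccng1), chr10:117710895-117710984 (minus, Mdm2), chr11:69580244-69580333 (plus, Trp53) and chr7:45467050-45467139 (minus, Bax).
Cdkn1a, 20-base site with 1 mismatch, beginning 51 bases before the start: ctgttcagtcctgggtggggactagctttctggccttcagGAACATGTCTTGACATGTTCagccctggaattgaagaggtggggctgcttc
Ccng1, 20-base site with 1 mismatch, beginning 195 bases before the start: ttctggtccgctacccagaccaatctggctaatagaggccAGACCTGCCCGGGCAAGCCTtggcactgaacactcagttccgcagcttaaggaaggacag
Mdm2, 10-base element beginning 186 bases before the start: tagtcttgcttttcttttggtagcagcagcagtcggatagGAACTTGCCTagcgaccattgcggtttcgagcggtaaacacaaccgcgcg
Trp53, 10-base element beginning 75 bases before the start: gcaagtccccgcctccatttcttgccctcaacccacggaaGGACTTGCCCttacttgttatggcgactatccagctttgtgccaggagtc
Bax, 10-base element beginning 201 bases before the start: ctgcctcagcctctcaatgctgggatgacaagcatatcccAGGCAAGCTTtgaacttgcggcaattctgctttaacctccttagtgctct
The Cdkn1a stretch also holds a further 10-base element, beginning 73 bases before the start and left in lower case. A match describes letters in a window and not binding, and a window without one may hold a site elsewhere in the gene. On the GRCm38 annotation Cdkn1a spans chr17:29090976-29100727, Ccng1 chr11:40748552-40755311, Mdm2 chr10:117688875-117710758, Trp53 chr11:69580359-69591873 and Bax chr7:45461697-45466898, and the sites shown lie upstream of each gene's annotated start. Other protein-coding members lie elsewhere in the genome, among them Phlda3 (chr1:135766119-135769136), Trp53inp1 (chr4:11156431-11174379), Sesn2 (chr4:132492032-132510501) and Bbc3 (chr7:16308393-16318205).

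The question put to the single-cell table was in which of the 22 deposited clusters of 4949 cells these genes were high. The answer was a single cluster, number 11, in which the 9 targets summed to 3774 UMI CPM (exact Poisson 95% interval 3669 to 3882) against 853 in the other 4709 cells, a ratio of 4.42 (4.30 to 4.55). Cluster 11 held 240 cells: 143 Mtf2 null, 86 Jarid2 null, 10 WT and 1 Eed null. Of these, 14 came from day 0, 9 from day 4, 100 from day 7 and 117 from day 10. Its median of 4226 UMIs per cell was the lowest of all clusters. The clusters were drawn from the same cells and genes, so these values describe the cluster, and all intervals of UMI counts cover counting error only.

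Cdkn1a showed the largest level in cluster 11, 1268 UMI CPM (1207 to 1331) against 152 in the other cells, a ratio of 8.33, and the next cluster, 18, was at 738. The BH3-only gene Bbc3 had the largest ratio, 9.25, at 159 against 17.2 UMI CPM, and the next cluster was at 55.4. Phlda3, the AKT inhibitor, stood at 172 against 22.0 (ratio 7.85). These 3 genes thus differed most from the remaining cells.

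Trp53inp1 was at 590.4 against 85.3 UMI CPM (ratio 6.92), Pmaip1 at 459 against 105 (4.37) and Ccng1 at 472 against 109 (4.35). The ubiquitin ligase Mdm2 (342 against 97.5, ratio 3.51) and Sesn2 (109 against 39.0, ratio 2.80) were also higher in cluster 11 than in any other cluster. For all 8 genes cluster 11 ranked highest of the 22. Bax did not follow them, with 202 UMI CPM in cluster 11 against 227 elsewhere (ratio 0.891, rank 12). Trp53 RNA itself was at 190 against 200 UMI CPM (ratio 0.952, rank 9), and its highest level, 419, was in cluster 8. Over 12438 genes with more than 3 UMIs in cluster 11 the median ratio was 1.14, and 15.8% exceeded 2.

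**Figure D1:**
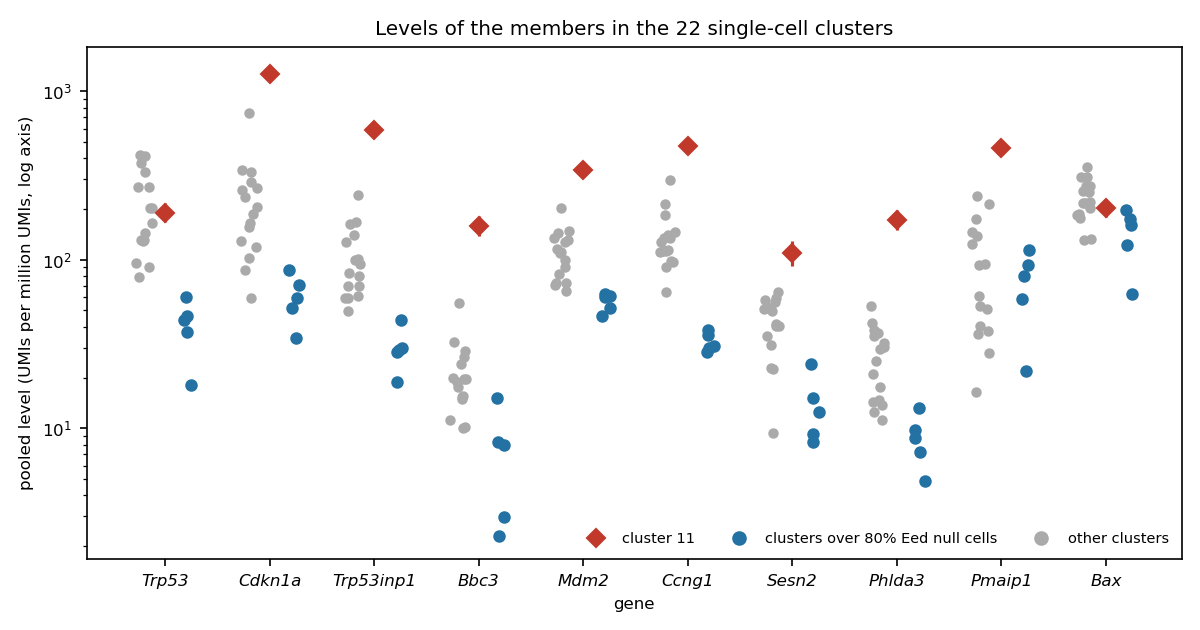
Pooled UMI CPM (log axis) of each member in the 22 clusters, with cluster 11 as a red diamond, clusters of over 80% Eed null cells in blue and the others in grey. Cluster 11 lies highest for 8 of the 10 members, while Bax and Trp53 lie within the spread of the other clusters, and the blue points lie low for Trp53.

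The difference was present per cell and at equal depth. After each cell was thinned to 2500 UMIs, 190 cells of cluster 11 remained, with a median of 4 of the 9 targets detected, and 64.7% of them held at least 4 of the 9. The next cluster by this measure was cluster 2 with 26.5%, and the 5 clusters made mostly of Eed null cells had 0 to 1.61%. Clusters 2 and 18 followed by summed level, at 1666 and 1631 UMI CPM. Cluster 2 contained 174 Jarid2 null and 162 Mtf2 null cells, 264 of its cells being from day 4, whereas cluster 18 was mainly WT (69 of 114 cells) and day 10 (103 cells). In cluster 18 Cdkn1a alone made up 738 of the 1631 UMI CPM, and 16.0% of its thinned cells held at least 4 of the 9. A high summed level was thus not restricted to mutant cells, although in cluster 18 it rested largely on Cdkn1a and cluster 11 held few WT cells.

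Cluster 11 took up 16.9% (Clopper-Pearson 95% interval 13.1 to 21.2) of the Mtf2 null library at day 7 and 23.4% (18.8 to 28.4) at day 10, after 1.44% at day 0 and 1.51% at day 4. The Jarid2 null libraries held 2.37%, 0.935%, 11.6% and 15.2% (11.1 to 20.1) at days 0, 4, 7 and 10. WT libraries held 0.294 to 1.90% and Eed null libraries 0 to 0.313%. These shares could not be tested over samples, because each genotype and day was 1 library. Within cluster 11 the 9 targets stood at 4655 UMI CPM (4443 to 4875) in Jarid2 null cells, 3381 (3258 to 3508) in Mtf2 null cells and 4368 (3755 to 5053) in the 10 WT cells. The summed level of the WT cells therefore lay between those of both mutants, but not that of each gene. Cdkn1a was at 2075 UMI CPM in the WT cells against 1483 in Jarid2 null and 1143 in Mtf2 null, and Pmaip1 at 145 against 622 and 403.

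Other genes of the pathway were read from a list of 27 further p53 targets. The share of all genes higher in cluster 11 was not counted. Over the 12438 genes with more than 3 UMIs there, the median ratio of 1.14 means that most were higher. Counts of higher genes in this and the next paragraph are to be read beside that. In cluster 11, 22 of the 27 were higher than in the other cells, with a median ratio of 2.43, and the largest ratios were those of the death receptor gene Fas (9.91) and the peptide transporter gene Tap1 (9.16). Their sum, 2984 UMI CPM, was the highest of the clusters, which otherwise ranged from 1137 to 2123. Tigar, a regulator of glycolysis, was among the 5 that were lower (ratio 0.430). Of the BCL2 family 9 of 12 were higher (median ratio 1.65), led by the BH3-only genes Hrk (3.35) and Bcl2l11 (3.21), and of p53 regulators and relatives 9 of 15, among them Trp73 (3.99) and Mdm4 (2.30).

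Other lists moved with the cluster. The 7 genes of the integrated stress response were all higher (median ratio 2.98, with Ddit4 at 4.31 and Atf3 at 3.69) and their sum of 1765 UMI CPM lay above the 466 to 1573 of the other clusters. All 8 S phase genes were lower (median ratio 0.502), and their sum of 995 UMI CPM was the lowest of the 22 clusters (1130 to 2499 elsewhere). The 8 G2 and M phase genes were lower as well (median ratio 0.830). Among cell type markers, 4 of 4 epiblast and 4 of 4 neural genes were higher (median ratios 2.74 and 1.96), and 0 of 6 pluripotency genes were (0.403). Mesoderm markers were higher in 1 of 5, endoderm in 3 of 4 and fibroblast markers in 1 of 5, and no listed marker was at 0. Immediate early and heat shock genes, which can rise during cell dissociation, were higher in 5 of 7, with a median ratio of 1.02. The part of these genes, of the low UMI number and of undetected doublets in the result was not tested.

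Genes whose pattern over the 22 clusters was most like the mean of the 9 targets were sought among 10844 genes, by Pearson correlation of log2(UMI CPM + 10); the points share libraries and depth, and the values are a description. The 8 nearest genes outside the members were Zmat3 (0.912), Eda2r (0.878), Mafg (0.871), Slc19a2 (0.865), Lrrc28 (0.854), Rev1 (0.830), Bst2 (0.8291) and Rbm39 (0.813). Zmat3, which encodes a zinc finger RNA-binding protein, Eda2r, a receptor of the TNF receptor family, and Slc19a2, a thiamine transporter, are themselves on the list of further p53 targets. Among the members Trp53inp1 (0.954), Ccng1 (0.924), Mdm2 (0.921) and Bbc3 (0.911) followed the mean closely and Bax (0.560), Trp53 (0.509) and Pmaip1 (0.496) least.

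Across the 16 single-cell libraries, Trp53 and most targets were lowest in Eed null cells. Trp53 stood at 45.1, 29.7, 36.5 and 31.4 UMI CPM in Eed null at days 0, 4, 7 and 10. In WT it was at 374, 109.7, 129 and 119, in Mtf2 null at 408, 146, 113 and 188, and in Jarid2 null at 429.5, 186, 211 and 369. Every Eed null library thus lay below every other library, and in each genotype Trp53 was highest at day 0. In the 5 clusters of over 80% Eed null cells (1124 of 1165 cells) Trp53 ranged from 18.0 to 60.03 UMI CPM, below the 79.2 to 419 of the other 16 clusters leaving out cluster 11.

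The summed targets of Eed null cells were below those of the other genotypes at each day. The 9 targets summed to 442, 463, 455 and 262 UMI CPM in Eed null, 906, 1081, 918 and 1213 in WT, 1032, 1337, 1222 and 1486 in Mtf2 null, and 947, 1088, 1160 and 1267 in Jarid2 null. Eed null libraries did not overlap the 12 others for Ccng1 (23.9 to 35.1 against 107 to 235), Trp53inp1 (18.0 to 40.8 against 83.0 to 172), Mdm2 (51.8 to 60.96 against 97.6 to 146), Bbc3 (2.94 to 7.46 against 11.7 to 52.8), Sesn2 (7.46 to 22.7 against 28.6 to 62.9) and Phlda3 (5.76 to 15.7 against 21.0 to 75.5). How many of all genes separate the Eed null libraries in this way was not counted, so these ranges, and those of Trp53, only describe the members. Ranges overlapped for the other 3 targets. Bax was at 50.01 to 183 UMI CPM in Eed null against 160.2 to 362, Cdkn1a at 27.6 to 82.4 against 79.1 to 509.8 and Pmaip1 at 29.9 to 109 against 16.1 to 231. Unlike the others, Pmaip1 was above WT in Eed null at each day (64.5, 109, 79.4 and 29.9 UMI CPM against 16.1, 26.1, 31.1 and 23.6).

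Further targets and regulators were also different in Eed null cells. The 27 further targets summed to 1073 to 1421 UMI CPM against 1675 to 2127 in the other libraries, and Eda2r, one of the genes nearest to the members, was at 7.46 to 11.5 against 50.1 to 104. Cdkn2a, which encodes p16 and the Mdm2 antagonist ARF and is a well known PRC2-repressed locus, was at 6.48 to 21.6 UMI CPM in Eed null against 0 to 4.03. The summed integrated stress response genes (557 to 866 against 774 to 1228), pluripotency genes (243 to 2329 against 167 to 1656), fibroblast markers (44.3 to 1300 against 1.56 to 1253) and S phase genes (1164 to 2342 against 1143 to 2482) overlapped the other libraries. Their part in the result was not tested.

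Cdkn1a increased with day in the 3 remaining genotypes, from 137 UMI CPM at day 0 to 475 at day 10 in WT, from 88.9 to 509.8 in Mtf2 null and from 79.1 to 396 in Jarid2 null, while in Eed null it went from 53.01 to 27.6. In the single-cell libraries Pmaip1 separated WT from both accessory-subunit mutants. It was at 16.1, 26.1, 31.1 and 23.6 UMI CPM in WT at days 0, 4, 7 and 10, and at 179.7, 231, 149.99 and 145 in Mtf2 null. In Jarid2 null it was at 132, 197, 216 and 162.5, so that each library of either mutant lay above each WT library. How many of all genes separate WT from both mutants in this way was not counted.

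**Figure D2:**
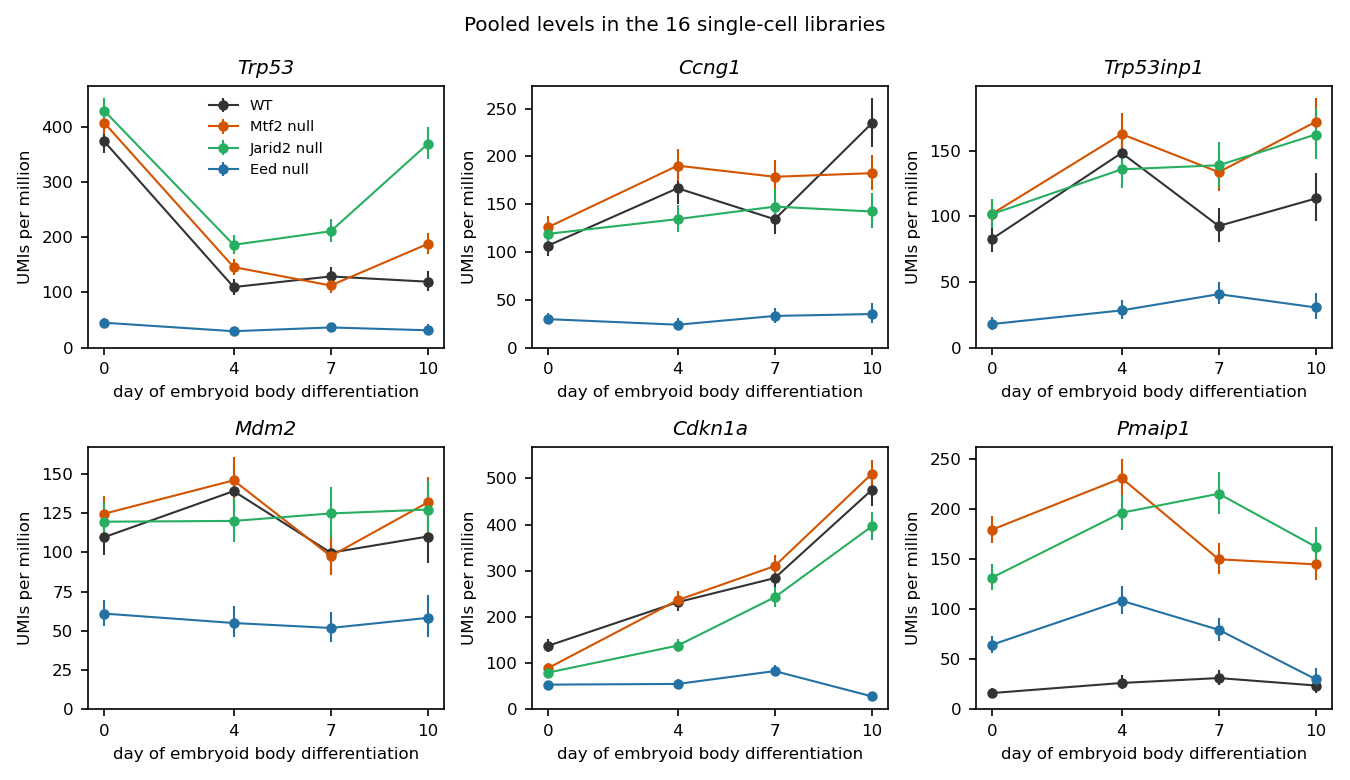
Pooled UMI CPM with exact Poisson 95% intervals (counting error only) of Trp53, Ccng1, Trp53inp1, Mdm2, Cdkn1a and Pmaip1 by day and genotype, 1 library per point. Eed null libraries are lowest at each day except for Pmaip1, for which WT is lowest at days 0, 4, 7 and 10 (at day 10, 23.6 against 29.9 in Eed null).

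The sums of the Mtf2 null and Jarid2 null libraries at days 7 and 10 were lower without cluster 11. Without its cells the 9 targets stood at 989, 1331, 944 and 938 UMI CPM in Mtf2 null at days 0, 4, 7 and 10, at 880.1, 1046, 883 and 919 in Jarid2 null, and at 902, 1069.9, 884 and 1192 in WT. At day 7 Mtf2 null was still above WT and Jarid2 null level with it, and at day 10 both mutants were below WT. The ratio of the Mtf2 null to the Eed null library of day 10, the highest and the lowest of all, went from 5.67 to 3.58. Mtf2 null day 4 was then the highest library, at 5.08 times the lowest.

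The bulk embryoid bodies addressed the same genotypes, each mutant beside a WT line of its own background, with the 4 days as the only replication. The study describes 1 line per mutant, so these samples are not further lines. A gene was called at an adjusted p under 0.05 in limma on log2 CPM with day as a block. Against J1, 9 of the 10 members were lower in the embryoid bodies labelled Eed null, where 10.9% of all genes tested were called. For these 9 the lines did not overlap; 4.04% of all genes tested lay likewise wholly below J1. The median log2 fold change of the members was -1.90.

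In embryoid bodies labelled Eed null Trp53 stood at 14.6, 44.7, 23.9 and 12.4 CPM on days 0, 2, 4 and 7, against 257, 380.0, 230.0 and 178 in J1. The log2 fold change was -3.57 (SE 0.48, limma adjusted p = 3.20e-04). Ccng1 was at 40.8, 41.99, 26.4 and 56.7 against 429, 297, 484 and 671 CPM (log2 fold change -3.49, SE 0.42, limma adjusted p = 1.05e-04). Both genes were thus lower at every day, and no day of one line reached the range of the other.

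Among cell cycle and growth targets, Cdkn1a was at 15.8, 12.8, 10.3 and 14.0 CPM against 116, 35.2, 68.3 and 139.9 (log2 fold change -2.58, SE 0.36, limma adjusted p = 4.30e-04). Trp53inp1 fell by 2.18 on the log2 scale, Phlda3 by 2.10, Mdm2 by 1.27 and Sesn2 by 1.27 (limma adjusted p = 9.67e-04, 7.61e-03, 1.26e-03 and 8.37e-03). Of the death genes, Bbc3 fell by 1.70 and Bax by 0.88 (limma adjusted p = 2.11e-03 and 0.0201). Pmaip1 was the exception, at 41.6, 41.9, 59.8 and 23.0 CPM against 35.3, 19.8, 33.1 and 9.0 in J1, higher at all 4 days and not called (log2 fold change 0.87, SE 0.39, limma adjusted p = 0.152). The calls of Sesn2, Bax and Phlda3 were lost when 1 day was left out (Sesn2 without day 2 or 7, Bax without day 4 or 7, Phlda3 without day 4).

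Of the 27 further p53 targets, 13 were lower and 2 higher in the libraries labelled Eed null, led by Eda2r (-3.76) and Zfp365 (-3.39) on the log2 scale, with Tigar (0.64) and Xpc (0.56) higher. Cdkn2a was at 33.3, 21.1, 30.4 and 56.0 CPM against 3.6, 4.9, 1.5 and 4.2 in J1 (log2 fold change 3.26, limma adjusted p = 9.37e-05), and the p53 inhibitors Mdm4 (-1.28) and Ppm1d (-0.84) were lower. Reads of Cdkn2a do not tell p16 from ARF in this table. Other genes moved as well: Hrk (1.69), the fibroblast marker Thy1 (2.06) and the neural marker Six3 (2.61) were higher. Summed fibroblast markers were at 34.9 to 686 CPM against 18.5 to 4221 in J1, and neural markers at 85.2 to 149 against 32.6 to 139. Their part in the result was not tested.

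**Figure D3:**
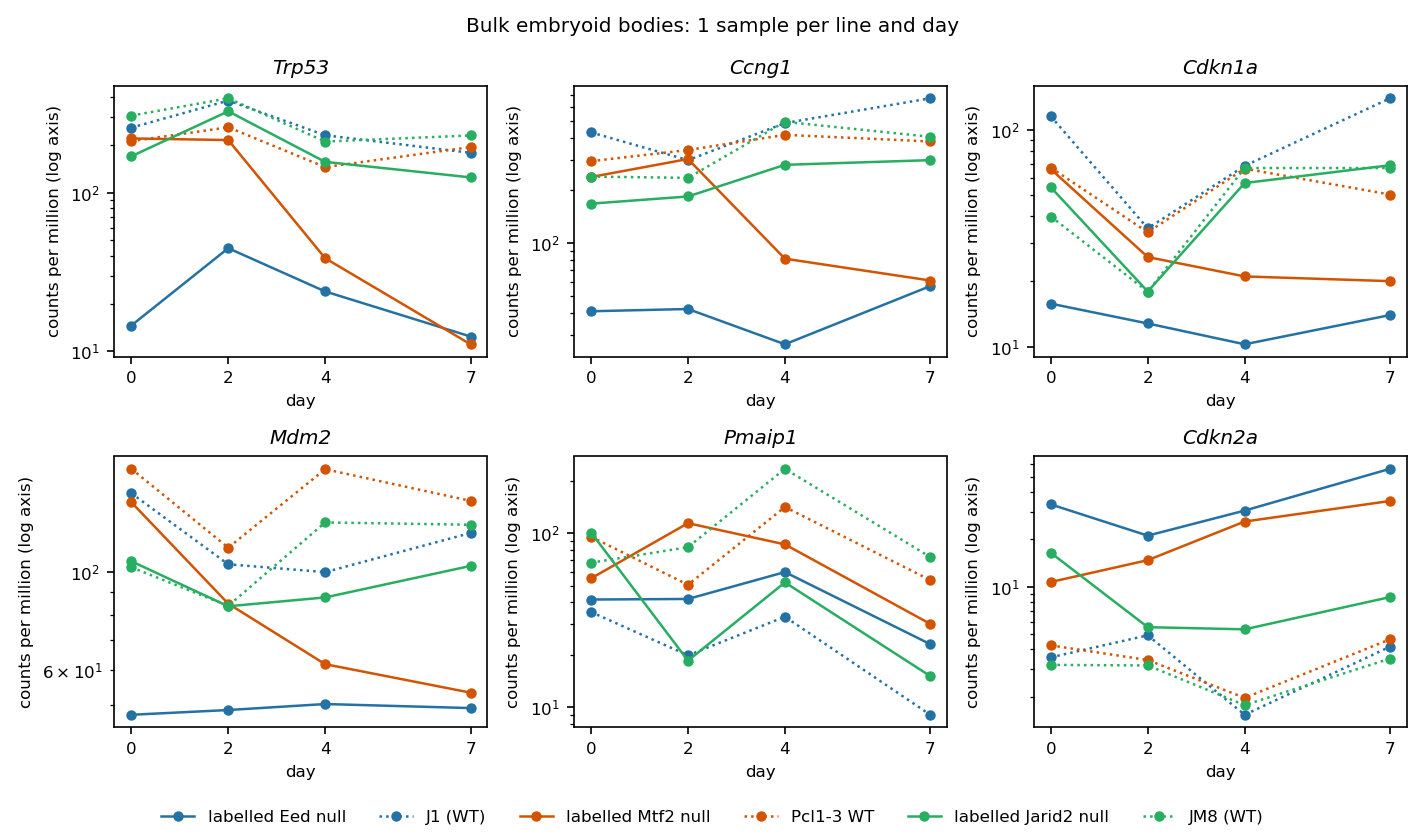
CPM (log axis) of Trp53, Ccng1, Cdkn1a, Mdm2, Pmaip1 and Cdkn2a at days 0, 2, 4 and 7 in the 6 embryoid body lines, 1 sample per point. The line labelled Eed null is low for Trp53 and Ccng1 at all days. At days 4 and 7 the line labelled Mtf2 null has Trp53 at 38.6 and 11.1 CPM, against 12.4 to 44.7 in the line labelled Eed null. Its Ccng1, at 81.4 and 61.1 CPM on these days, stays above the 26.4 to 56.7 of the line labelled Eed null.

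In the libraries labelled Mtf2 null, 4 members were lower than in Pcl1-3 WT, where 18.4% of all genes were called, and all 4 overlapped between the lines. Trp53 was at 219.6, 214.5, 38.6 and 11.1 CPM against 211, 258, 145 and 194 (log2 fold change -1.55, SE 0.48, limma adjusted p = 0.0300). Ccng1 was at 238, 302, 81.4 and 61.1 against 293, 340, 415 and 380 CPM (-1.36, limma adjusted p = 0.0283). Both therefore lay close to their WT line at days 0 and 2 and far below it at days 4 and 7. Pmaip1 was not called, and its ranges overlapped, at 30.1 to 114 CPM (median 70.7) against 50.6 to 142 (median 74.7) in Pcl1-3 WT.

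Trp53inp1 (-1.24) and Mdm2 (-0.90) were the other members called (limma adjusted p = 0.0157 and 5.61e-03). The days were also split, after these values had been seen, so the counts restate the pattern that prompted the split. With days 0 and 2 alone 0 members were called, and with days 4 and 7 alone 9 were. Each split has only 2 days per line, and the share of all genes was not counted for it. Leaving out day 4 or day 7 lost calls of all 4. Cdkn2a rose over the same days, from 10.7 and 14.7 to 25.9 and 34.98 CPM (log2 fold change 2.45 against Pcl1-3 WT). In the 4 samples labelled Eed null and the samples labelled Mtf2 null at days 4 and 7, Trp53 spanned 11.1 to 44.7 CPM and Ccng1 26.4 to 81.4, against 125 to 393 and 168 to 671 in the other 18 samples. These samples were grouped after their low values were seen, so the gap only describes the grouping. How many of all genes separate likewise was not counted. Ranges of Mdm2, Sesn2, Phlda3 and Bax were also apart, and those of Cdkn1a, Trp53inp1, Bbc3 and Pmaip1 overlapped. Endoderm markers moved with the line (summed 2.22 to 26.6 CPM against 2.41 to 13.5; Sox17 2.70 and Foxa2 2.64 on the log2 scale), and their part in the result was not tested.

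In the libraries labelled Jarid2 null 1 member was called against JM8, where 14.8% of all genes were. Pmaip1 was at 101, 18.5, 52.2 and 15.1 CPM against 67.7, 83.2, 235 and 73.0 in JM8 (log2 fold change -1.503, SE 0.39, limma adjusted p = 0.0129), lower at 3 of 4 days. The call was lost without day 2, 4 or 7 (adjusted p = 0.0665, 0.159 and 0.136). The direction is opposite to that between the Jarid2 null and WT single-cell libraries. At day 0 the WT lines themselves ranged from 35.3 (J1) to 95.5 CPM (Pcl1-3 WT) for Pmaip1, with JM8 at 67.7.

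The directed series addressed the time course at higher resolution. Calls here needed a log2 fold change of more than 1 in either direction with an adjusted p under 0.001 in edgeR's quasi-likelihood test, and p-values over technical duplicates measure only the spread between these libraries. In WT cells 2, 6 and 7 of the 10 members rose over UD at 5, 24 and 48 h of mesoderm induction, and 1, 7 and 6 in endoderm; 0 fell. Over all genes 4.13, 6.96 and 8.64% were called in mesoderm, and 2.1, 5.31 and 8.15% in endoderm. The members' median log2 fold changes were 0.40, 1.33 and 1.39 in mesoderm and 0.11, 1.22 and 1.04 in endoderm. The 3 times share the same UD libraries.

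Cdkn1a responded early in mesoderm. Its replicates were at 17.8 and 15.8 CPM in UD, 48.0 and 46.8 at 5 h, 115 and 103 at 24 h and 47.3 and 53.2 at 48 h, so it peaked at 24 h. The log2 fold changes were 1.498, 2.70 and 1.58 (SE 0.17 each, edgeR adjusted p = 3.55e-06, 5.89e-10 and 4.50e-07). In endoderm Cdkn1a went from 16.8 and 15.0 CPM to 23.7 and 23.7 at 5 h, 91.8 and 76.6 at 24 h and 58.8 and 41.2 at 48 h. The 5 h value was not called (0.58, edgeR adjusted p = 0.0184), and the 24 h value was 2.41 (edgeR adjusted p = 1.70e-09).

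Mdm2 was at 59.2 and 52.3 CPM in UD, 109 and 97.5 at 5 h, 202 and 204 at 24 h and 188 and 241 at 48 h of mesoderm, with log2 fold changes of 0.89, 1.86 and 1.94. In endoderm it rose at 24 and 48 h (1.95 and 1.57; edgeR adjusted p = 3.00e-12 and 8.06e-11). Sesn2 was the only member called at 5 h in both series (1.52 in mesoderm and 1.06 in endoderm, edgeR adjusted p = 1.69e-06 and 2.78e-06), from 74.3 and 59.04 CPM in UD to 174 and 207 in mesoderm. It stayed high, at 185 and 256 CPM at 48 h.

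Trp53inp1 took a different course. It was at 106 and 144 CPM in UD, 95.7 and 81.1 at 5 h, 387 and 379 at 24 h and 549 and 381 at 48 h of mesoderm. The log2 fold changes were -0.50, 1.61 and 1.89, so that it was not higher at 5 h and rose by 24 h. Phlda3 (1.48 and 1.54 at 24 and 48 h in mesoderm, 1.22 and 1.04 in endoderm) was called at both later times in both series. Ccng1 was called at 48 h of mesoderm (1.25) and at both later times of endoderm (1.08 and 1.04), and Bbc3 at 48 h of mesoderm (1.04). Some of these calls lay close to the fold limit and were lost when a single WT library was left out. They were Sesn2 at 5 h of endoderm (0.91 without UD replicate 2), Ccng1 at 24 and 48 h of endoderm (0.99 and 0.94 without UD replicate 1), Phlda3 at 48 h of endoderm (0.96 without replicate 1) and Bbc3 at 48 h of mesoderm (0.87 without replicate 2 and 0.997 without UD replicate 1).

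Pmaip1 in WT cells rose at 24 h (1.17 in mesoderm and 1.23 in endoderm) and parted afterwards. At 48 h it stood at 6.21 and 6.93 CPM in mesoderm, below the 12.1 and 12.9 of UD (log2 fold change -0.94, edgeR adjusted p = 7.60e-05, under the fold limit), and at 30.7 and 24.3 in endoderm. Bax was not called at any time, with log2 fold changes between -0.26 and 0.07. Trp53 was not called either, with 0.89, 0.62 and 0.41 in mesoderm and 0.74, 0.59 and 0.23 in endoderm, largest at 5 h in each.

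**Figure D4:**
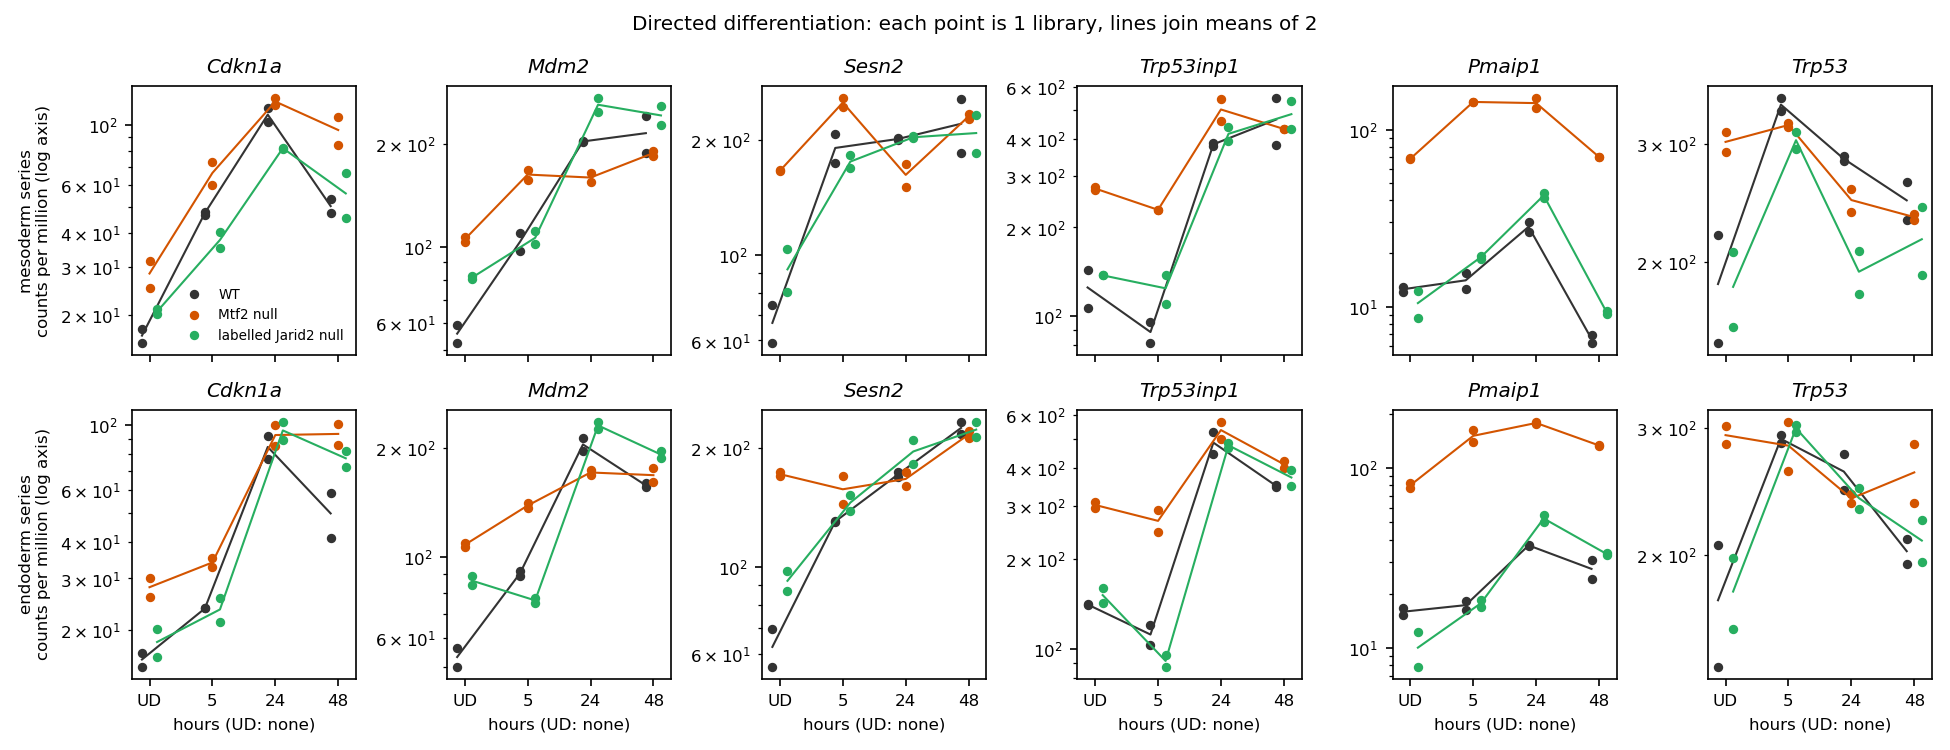
CPM (log axis) of Cdkn1a, Mdm2, Sesn2, Trp53inp1, Pmaip1 and Trp53 in undifferentiated cells and at 5, 24 and 48 h of mesoderm (top) and endoderm (bottom) induction; points are libraries and lines join means of 2. Cdkn1a peaks at 24 h in WT mesoderm, and Pmaip1 of Mtf2 null cells lies above WT in every panel position.

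Of the 26 further p53 targets tested, 3, 13 and 11 rose at 5, 24 and 48 h of WT mesoderm and 0, 12 and 10 in endoderm, and 0 fell. Plk2, a polo-like kinase, had log2 fold changes of 3.03 and 3.28 at 24 and 48 h of mesoderm and 2.92 and 2.74 of endoderm. Trp73, which encodes the p53 relative p73, rose by 3.24 at 48 h of mesoderm, and Cdkn2a by 1.84 and 1.67 at 48 h of mesoderm and endoderm. Of the 7 integrated stress response genes 5 and 6 rose by 48 h, led by Atf3 (2.74 and 3.90) and Chac1 (2.00 and 2.76), and of 6 pluripotency genes 1 and 5 fell. Their part in the rise of the members was not tested.

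The comparison of Mtf2 null with WT asked which members depended on genotype within this course. Pmaip1 was higher in Mtf2 null cells in UD and at every time of both series. Its UD libraries were at 69.5, 68.1, 77.5 and 83.0 CPM against 12.1, 12.9, 15.2 and 16.6 in WT (log2 fold change 2.40, SE 0.13, edgeR adjusted p = 6.88e-10). At 48 h of mesoderm it was at 70.2 and 70.5 against 6.21 and 6.93 CPM (3.42, SE 0.14, edgeR adjusted p = 2.25e-13). At 48 h of endoderm it was at 132 and 135 against 30.7 and 24.3 CPM (2.28, edgeR adjusted p = 1.90e-11).

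The intermediate times gave the same order. Pmaip1 differed by 3.35 and 2.33 on the log2 scale at 5 and 24 h of mesoderm (144 and 145 against 15.5 and 12.6 CPM, then 151 and 133 against 30.1 and 26.6) and by 3.13 and 2.26 at 5 and 24 h of endoderm. No Mtf2 null library overlapped the WT libraries of its time, but the share of all genes for which this holds was not counted. In both genotypes Pmaip1 was higher at 24 h than in UD. WT in these comparisons was E14. Against Pcl1-3 WT, Pmaip1 was not called in the embryoid bodies labelled Mtf2 null, and the ranges of both lines overlapped.

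Undifferentiated Mtf2 null cells had higher values of all 10 members, of which 3 were called at a background of 14.7% of all genes. Sesn2 (166 to 174 CPM against 55.7 to 74.3; log2 fold change 1.40, edgeR adjusted p = 7.70e-09) and Trp53inp1 (1.11, edgeR adjusted p = 1.42e-07) were called beside Pmaip1. Mdm2 (0.98), Cdkn1a (0.80) and Trp53 (0.74) were under the fold limit with edgeR adjusted p = 1.46e-08, 4.35e-06 and 1.11e-04, and Bax (0.13, adjusted p = 0.277) was the member with the smallest difference. The 4 UD libraries per genotype may not be 4 independent samples: the difference between replicates 1 and 2 in the mesoderm table correlated with that in the endoderm table over 8908 genes, with r of 0.630 in WT, 0.570 in Mtf2 null and 0.569 in the libraries labelled Jarid2 null, against -0.396 to 0.288 between different genotypes. Within the mesoderm table alone 3 members were called, within the endoderm table alone 4, and with same-numbered libraries of both tables summed 4.

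At 5 h Pmaip1 and Trp53inp1 were called in both series (Trp53inp1 1.38 in mesoderm and 1.26 in endoderm, edgeR adjusted p = 4.37e-06 and 4.54e-08), against 7.56 and 7.61% of all genes. At 24 and 48 h the only member called was Pmaip1, against 5.72 and 6.82% of genes in mesoderm and 6.58 and 10.5% in endoderm. Cdkn1a at 48 h was higher in Mtf2 null cells by 0.93 in mesoderm and 0.90 in endoderm on the log2 scale (edgeR adjusted p = 1.06e-04 and 7.80e-05), under the fold limit. In mesoderm its 48 h libraries were at 107 and 84.6 CPM, against 47.3 and 53.2 in WT. Immediate early and heat shock genes moved in the same libraries, 3 of 7 being called higher at 5 h in each series and 2 and 5 at 24 h of mesoderm and endoderm (in endoderm summed to 105 to 110 against 40.5 to 41.6 CPM at 5 h and 141 to 155 against 55.2 to 61.3 CPM at 24 h). Their part in the result was not tested.

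The difference between genotypes itself changed over time for some members. The Mtf2 null effect at 48 h minus that in UD was -1.11 for Mdm2 (SE 0.17, edgeR adjusted p = 1.47e-04) and -1.25 for Sesn2 (SE 0.22, adjusted p = 6.19e-04) in mesoderm, where 2.71% of genes were called. In endoderm it was -1.52 for Sesn2 (SE 0.16, edgeR adjusted p = 1.15e-06), against 5.24% of genes. Sesn2 in Mtf2 null cells went from 166 and 167 CPM in UD to 227 and 234 at 48 h of mesoderm and from 170 and 174 to 213 and 221 in endoderm. WT cells thus started lower and reached the same range, 185 to 256 CPM. The mesoderm calls were lost when single libraries were left out (edgeR adjusted p = 9.45e-04 to 5.13e-03), namely either Mtf2 null library at 48 h, Mtf2 null UD replicate 1, or WT replicate 2 at UD or 48 h for both genes, and Mtf2 null UD replicate 2 for Sesn2. The endoderm call of Sesn2 was kept in each case (-1.70 to -1.37).

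In UD, 6 of the 26 further p53 targets were higher in Mtf2 null cells and 0 lower, led by Perp (2.17), a membrane effector of apoptosis, and Plk2 (1.93). At 48 h 2 were lower in each series, Gdf15 (-1.60 and -2.06) and Aen (-1.22 and -1.21). Hipk2, a kinase that phosphorylates p53, was 2.46 higher in UD and the BH3-only gene Hrk 2.80 higher. Other lists moved with these values: 4 of 7 integrated stress response genes were higher (Atf3 3.27; summed 856 to 996 against 432 to 547 CPM), endoderm markers rose (Foxa2 3.51 and Sox17 3.42; summed 9.45 to 15.6 against 1.11 to 2.17 CPM), and mesoderm markers summed to 9.77 to 13.0 against 2.37 to 3.47 CPM. Of the 6 pluripotency genes Zfp42 was called lower (-2.47) and Klf4 higher (1.24). Their part in the result was not tested.

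In the libraries labelled Jarid2 null 0 members were called in any directed comparison by edgeR or by DESeq2. The genes called overall were few, 1.15% in UD, 0, 1.97 and 0.169% at 5, 24 and 48 h of mesoderm and 0.0363, 0.0312 and 0.125% in endoderm, and 0.0545 and 0.514% for the change of the effect between UD and 48 h. At an unadjusted p under 0.05 there were 4 members in UD, 3, 7 and 3 in mesoderm, and 2, 1 and 3 in endoderm. Shares of all genes at this limit, or at an adjusted p under 0.05 alone, were not counted. Member counts at these limits therefore cannot be set against the shares above. Mdm2 in UD had the smallest adjusted p (log2 fold change 0.60, SE 0.07, edgeR adjusted p = 3.05e-05, under the fold limit). It was at 80.3 to 88.8 CPM against 49.9 to 59.2 in WT, in UD libraries that may not be independent samples. The share of all genes with ranges apart in UD was not counted. Pmaip1 in UD was at 12.3, 8.67, 12.2 and 7.84 CPM against 12.1 to 16.6 in WT (-0.49, edgeR adjusted p = 0.0199). The direction was opposite to that of the single-cell libraries of day 0, where Jarid2 null was at 132 against 16.1 UMI CPM in WT. At 24 h of mesoderm 6 members had adjusted p under 0.05, among them Pmaip1 (0.59) and Trp53 (-0.56), and 6 of 7 immediate early and heat shock genes were called higher in the same libraries (summed 157 to 303 against 61.6 to 62.1 CPM); their part was not tested.

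**Figure D5:**
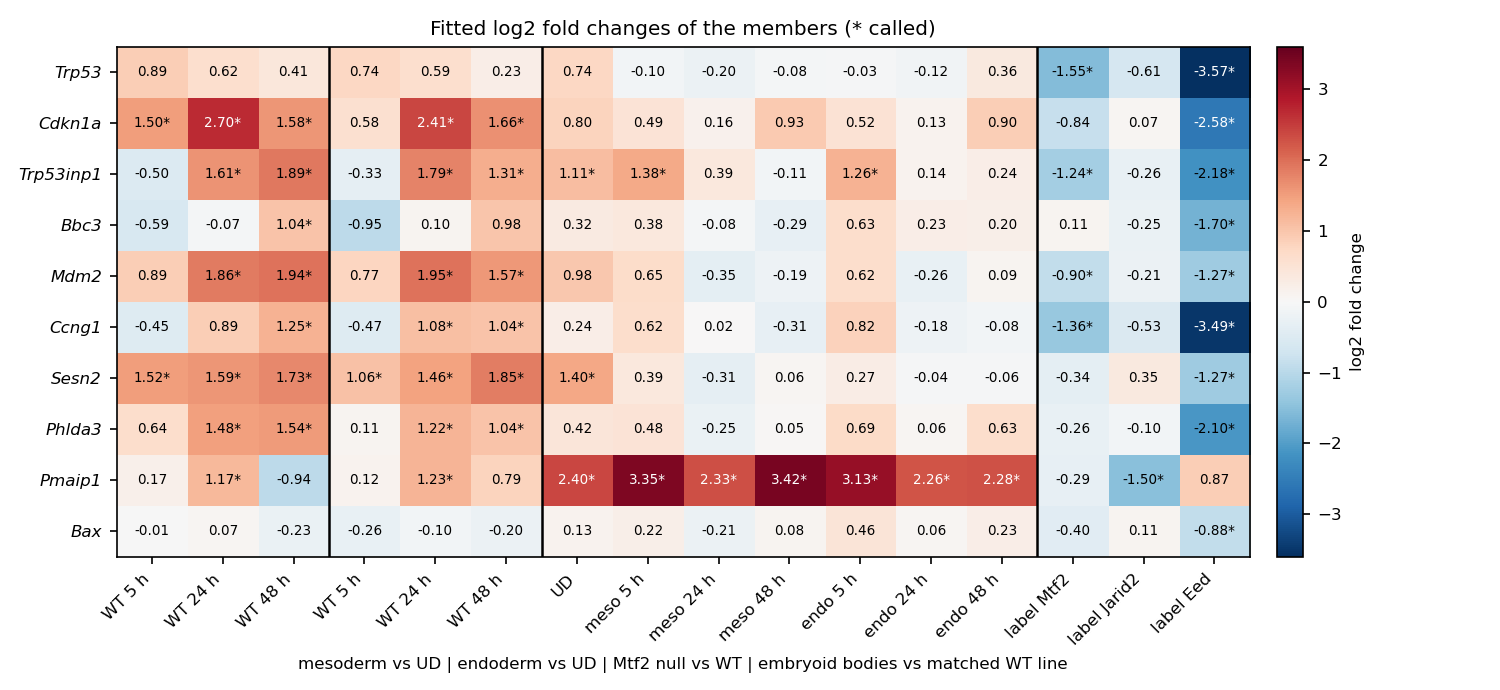
Heat map of the fitted log2 fold changes of the 10 members (rows) in 16 contrasts (columns); an asterisk marks a called value. Pmaip1 is the only member marked in all Mtf2 null contrasts of the directed series, and 9 members are marked as lower in the libraries labelled Eed null.

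Over the 24 libraries of each directed table, the genes whose log2 CPM was most like that of Cdkn1a were, by Pearson correlation, Exoc6b (0.931), Pid1 (0.925), Pdgfa (0.912), Tec (0.910) and Tnrc18 (0.908) in mesoderm and Ercc5 (0.975), Map3k20 (0.971), Ppard (0.959), Hyal1 (0.953) and Zfp750 (0.953) in endoderm. Among the members Phlda3 (0.806 and 0.956) and Mdm2 (0.806 and 0.932) were near. These correlations describe libraries that share their time points, and the 5 genes nearest in mesoderm and in endoderm had none in common.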

How the data were processed

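RNA was measured in 88 samples of mouse embryonic stem cells. For the single cells the authors aligned SORT-seq reads to GRCm38/mm10 with Bowtie2, counted them with HTSeq, filtered cells with Scater and clustered them with Seurat at resolution 2.5. The deposited single-cell values are UMI counts. Cells of all libraries share the same 384 well names because they were sorted into plates of one layout. For the directed series the authors deposited estimated counts per gene from Salmon on GRCm38/mm10, which were rounded to whole counts here. For the bulk embryoid bodies the authors deposited a signal, namely counts divided by a size factor per column. Whole reads were recovered from 45 of 46 columns (100% of values within 0.02 of a whole number), and repeat columns of a sample were summed.

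The members and gene lists were chosen with earlier results of these data known. UMI counts were pooled per cluster or library and scaled to the library or cluster total as UMI CPM, with exact Poisson 95% intervals. Shares of cells have Clopper-Pearson intervals. Both cover only the error of counting. Doublets were not called. Directed series were fitted with edgeR 4.0.16 (R 4.3.3; filterByExpr, TMM scaling, quasi-likelihood test, all 24 libraries of a series), and the 12 UD libraries of both series with a term for the series. Calls needed a Benjamini-Hochberg adjusted p under 0.001 over all genes tested, and a log2 fold change of more than 1 in either direction. For embryoid bodies limma 3.58.1 was run on log2 CPM (prior count 2) of genes with at least 1 CPM in 4 samples, with day as a block, and called at an adjusted p under 0.05. Symbols were matched for 53668 of 53697 (mesoderm), 54393 of 54393 (endoderm) and 25816 of 26007 (embryoid body) gene identifiers. Alternatives included DESeq2 1.42.0, other scaling, filters and leaving out each library or day. The tests were tried on simulated counts. Genes were named as the 10 members, the targeted genes, the 2 most changed called genes of each list in each direction, and the genes with the nearest pattern. Exceptions named after their values were seen were Cdkn2a, further members of a list with high or low ratios in cluster 11, and genes named for being lower in Mtf2 null cells. Endoderm libraries whose column names give 28 h were matched by library number to samples that the labels place at 48 h.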

Additional observations from a re-analysis of the deposited data

Results flagged for a closer look

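The Mtf2 null effect on 3 combinations of member and series differed between 48 h and undifferentiated cells by an interaction term in edgeR. The effect at 48 h minus that in UD was -1.5155 on the log2 scale for Sesn2 in endoderm, -1.2541 for Sesn2 in mesoderm and -1.1065 for Mdm2 in mesoderm. In each case Mtf2 null cells were above WT in UD and within or near the WT range at 48 h, while the WT level rose. In 30 sets of 4 undifferentiated libraries (10 members in 3 genotypes) 0 had a library standing apart by Dixon's criterion at the 95% level, which chance exceeds in about 1 of 20.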

How the results depend on the processing

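Without a fold limit and at an adjusted p under 0.05, the calls among members went from 4 to 10 for Mtf2 null in mesoderm, from 4 to 13 in endoderm and from 3 to 9 in UD, and from 15 to 25 and from 14 to 23 for the WT time course in mesoderm and endoderm (counts over 3 times). For the libraries labelled Jarid2 null they went from 0 to 6, 2 and 3, and for the change of effect between UD and 48 h from 2 to 6 and from 1 to 3 for Mtf2 null in mesoderm and endoderm, and from 0 to 2 for Jarid2 null in endoderm. The share of all genes called was counted only for the main settings, so none of the alternative counts given here can be set against it. With only the groups compared, the 2 mesoderm interaction calls became 0. In embryoid bodies the count labelled Mtf2 null went from 4 to 1 with no day term, 2 with edgeR on recovered reads, 0 with days 0 and 2 alone and 9 with days 4 and 7 alone; the count labelled Jarid2 null went from 1 to 0 with no day term and with days 0 and 2 alone; the count labelled Eed null, 9, became 6 with no day term or with days 0 and 2 alone, and 10 with days 4 and 7 alone. Splits by day and sums of same-numbered UD libraries were chosen after seeing the data. The ratio of cluster 11 to other cells, 4.42, was 4.83 after thinning, 4.87 as a mean of cells, 4.64 without the cells with the most UMIs, 3.57 without Cdkn1a, 4.145 without Trp53inp1, 5.70 without Bax and 3.81 without Eed null cells. The ratio of the Mtf2 null to the Eed null library of day 10, 5.67, became 7.05, 6.64 and 6.45 under the same 3 changes and 3.58 without cluster 11. Leaving out 1 library or day gave 4 to 5 calls for Mtf2 null in mesoderm and in endoderm, 3 to 4 in UD, 0 to 2 and 1 to 2 for its change of effect, 15 to 16 and 13 to 15 for WT, 0 to 0 for labelled Jarid2 null, and 7 to 10, 0 to 5 and 0 to 1 for the embryoid bodies labelled Eed, Mtf2 and Jarid2 null, and ratios of 4.29 to 4.70 for cluster 11. Replicate numbers did not pair the samples (r from -0.183 to 0.267 in mesoderm and -0.157 to 0.201 in endoderm), and the replicate block changed none of the 43 gene calls of the directed series. The cause of these changes was not tested. Technical duplicates, 1 library per genotype and day in single cells, and 1 sample per line and day in embryoid bodies limit what the tests cover, and low counts of Bbc3, Phlda3 and Sesn2 limit their single-cell levels.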
